A study of Homo sapiens with 9 samples.

Results

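The genes described here encode intermediate filament proteins in Huh7, an established cell line grown from a human liver cancer, hepatocellular carcinoma. They are vimentin (VIM), the keratins KRT8, KRT18, KRT19, KRT7 and KRT80, and the nuclear lamins LMNA and LMNB1. They were chosen by name, and all 8 are rows of the deposited table of 27421 genes. The study compared 2 ZMAT2 knockdown arms, shZMAT2-1 and shZMAT2-2, with a control, at 3 libraries each, made from poly(A) RNA with a strand-specific kit. ZMAT2 encodes a spliceosomal zinc finger protein. All 9 libraries come from this 1 cell line; the labels name no further allele or agent and do not say how the arms were made or what the control received. Whether replicates were grown as separate cultures is not stated, so the p-values describe the spread among these libraries and that spread may be technical.

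Intermediate filaments are cytoskeletal polymers built from proteins with a central coiled-coil rod. Keratins form obligate pairs of a type I chain (KRT18, KRT19) and a type II chain (KRT7, KRT8, KRT80), and hepatocytes normally make KRT8 with KRT18, while KRT7 and KRT19 mark bile duct cells. Vimentin is the filament of mesenchymal cells and is also found in many carcinoma lines, where it is read as a sign of epithelial-mesenchymal transition. Lamins A/C, both made from LMNA, and lamin B1 line the inner face of the nuclear envelope.

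Values are FPKM, counts of fragments divided by gene length and library depth. Levels set side by side between genes therefore depend on the lengths used. In GENCODE release 29 the merged exons span 6881 bases for KRT8 and 6985 for LMNA, against 3218 for KRT18 and 3633 for LMNB1. Recovered depths were 18430000 to 23740000 fragments per library. ZMAT2 itself stood at 15.2, 12.8 and 13.2 FPKM in shZMAT2-1, at 22.1, 20.3 and 20.8 FPKM in shZMAT2-2, and at 37.5, 32.8 and 39.2 FPKM in control libraries. It was lower in all 6 knockdown libraries (exact permutation test of 6 against 3 libraries, two-sided, p = 0.0119, the smallest that 84 assignments allow). All 10 hepatocyte markers on a list of 10 averaged at least 1 FPKM. Fragments of the 13 mitochondrially encoded genes made up 7.70% to 16.4% of shZMAT2-1, 14.5% to 27.0% of shZMAT2-2 and 7.86% to 43.2% of control libraries, with the highest share in control replicate 2. All 6 filament genes that could be tested had their lowest value of the 9 libraries in that control library, so their differences are also given without it.

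VIM (ENSG00000026025, chromosome 10, 17228241 to 17237593, plus strand in the deposited table) had the largest difference among these genes. In shZMAT2-1 it stood at 49.9, 38.3 and 44.3 FPKM, in shZMAT2-2 at 44.7, 53.2 and 60.7 FPKM, and in control libraries at 18.8, 11.3 and 18.1 FPKM. All 6 knockdown libraries lay above all 3 control libraries, with a wide gap between the groups. The means were 44.2 ± 5.79, 52.9 ± 7.97 and 16.1 ± 4.15 FPKM (SD, n = 3 each), or 2.75-fold and 3.29-fold the control mean. In bulk RNA a change in the share of cells that express a gene and a change in RNA per cell cannot be told apart.

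Differences were tested with limma on log2(FPKM + 1) over the 11245 genes that reached 1 FPKM in 3 or more libraries, and a gene was called at a Benjamini-Hochberg adjusted p under 0.05. The targeted gene ZMAT2 differed by -1.35 in shZMAT2-1 (limma adjusted p = 0.0283) and was called there, beside 0.08% of all genes. In shZMAT2-2 its difference of -0.76 was not called (limma adjusted p = 0.113). VIM rose in shZMAT2-2, by 1.68 on the log2 scale (SE 0.239, limma adjusted p = 0.0181), where 0.507% of all genes tested were called higher. In shZMAT2-1 its difference of 1.43 (SE 0.239, limma adjusted p = 0.0784) missed the threshold, and 0.0622% of genes were called higher there. For the mean of both arms the difference was 1.56 (SE 0.207, 95% interval 1.09 to 2.02, limma adjusted p = 0.0137), with 0.454% of genes called higher. Ranked by that difference VIM was number 6 of 11245 genes. Between shZMAT2-2 and shZMAT2-1 the difference was 0.25 on the log2 scale, with an interval of -0.28 to 0.78 (limma adjusted p = 0.68); limma called 0% of genes in that contrast, against 4.14% (465 genes) at an unadjusted p under 0.05.

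With 1 library left out at a time, VIM kept a positive difference but often missed the threshold. In the shZMAT2-2 contrast it was lost in 6 of 9 fits that each left out 1 library, namely shZMAT2-1 replicate 3 (limma adjusted p = 0.0606), shZMAT2-2 replicates 1, 2 and 3 (0.0689, 0.139 and 0.108) and control replicates 1 and 3 (0.0518 and 0.0586). In the mean of both arms it was lost in 4 of 9 fits, without shZMAT2-1 replicate 3, shZMAT2-2 replicate 2 or 3, or control replicate 3, at a limma adjusted p of 0.0522 to 0.0547. Calls over all genes also varied in these 9 fits. They numbered 0 to 270 in shZMAT2-2 and 6 to 150 in the mean, against 66 and 61 with all 9 libraries. Without control replicate 2 VIM was called in both arms, by 1.21 in shZMAT2-1 and 1.46 in shZMAT2-2 (limma adjusted p = 0.0327 and 0.00539). There 0.169% and 1.13% of genes were called higher. In shZMAT2-1 that call was absent with all 9 libraries, where the difference was larger, at 1.43.

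The sequence upstream of VIM is shown because it is the filament gene that was called, beside that of LMNB1, the one whose mean moved least. They were read from RefSeq on GRCh38.p14, from 250 bases before to 50 bases after an annotated start, and 4 of the 8 genes matched an entry. LMNB1 has 2 entries, of which the one with GC boxes is printed, chosen after its letters were seen. Which start these cells use cannot be read from values per gene. Capitals mark GC boxes (GGGCGG, or on the other strand CCGCCC) and CCAAT boxes (CCAAT, or on the other strand ATTGG). The VIM stretch is chr10:17227991-17228290 on the plus strand and that of LMNB1 is chr5:126776886-126777185 on the plus strand.
VIM: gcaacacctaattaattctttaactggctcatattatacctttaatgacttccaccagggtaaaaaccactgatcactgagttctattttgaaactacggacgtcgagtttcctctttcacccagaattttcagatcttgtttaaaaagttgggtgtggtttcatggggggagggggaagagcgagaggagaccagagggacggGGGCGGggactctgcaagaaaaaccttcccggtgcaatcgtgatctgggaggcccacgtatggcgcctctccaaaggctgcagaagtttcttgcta
LMNB1: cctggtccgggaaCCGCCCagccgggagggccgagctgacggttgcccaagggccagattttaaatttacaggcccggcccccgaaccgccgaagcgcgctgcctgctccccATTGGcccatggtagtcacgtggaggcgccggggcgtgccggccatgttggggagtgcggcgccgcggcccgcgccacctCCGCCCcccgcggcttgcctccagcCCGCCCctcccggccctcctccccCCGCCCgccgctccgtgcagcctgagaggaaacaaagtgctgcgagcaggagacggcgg
The VIM stretch holds 1 GC box, which starts 46 bases before the annotated start, and 48.0% of its bases are G or C. The LMNB1 stretch holds 4 GC boxes and 1 CCAAT box, and 73.7% of its bases are G or C. The other LMNB1 entry, chromosome 5 from 126776373 to 126776672, holds no GC box and no CCAAT box, with 52.0% G or C, so the contrast with VIM rests on the entry chosen. Over 35116 promoters of the same length, 45.0% held a GC box and 34.6% a CCAAT box, and the median G and C content was 58.7%. No TATA box (TATAAA on either strand, in 11.5% of promoters) and no AP-1 site (TGANTCA, in 7.71%) was found in either printed stretch. The general E-box pattern (CANNTG, in 68.7%) occurred 0 times in the VIM stretch, 1 time in the printed LMNB1 stretch, as CACGTG, and 3 times in the other. These letters are a description of the sequence only.

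**Figure D1:**
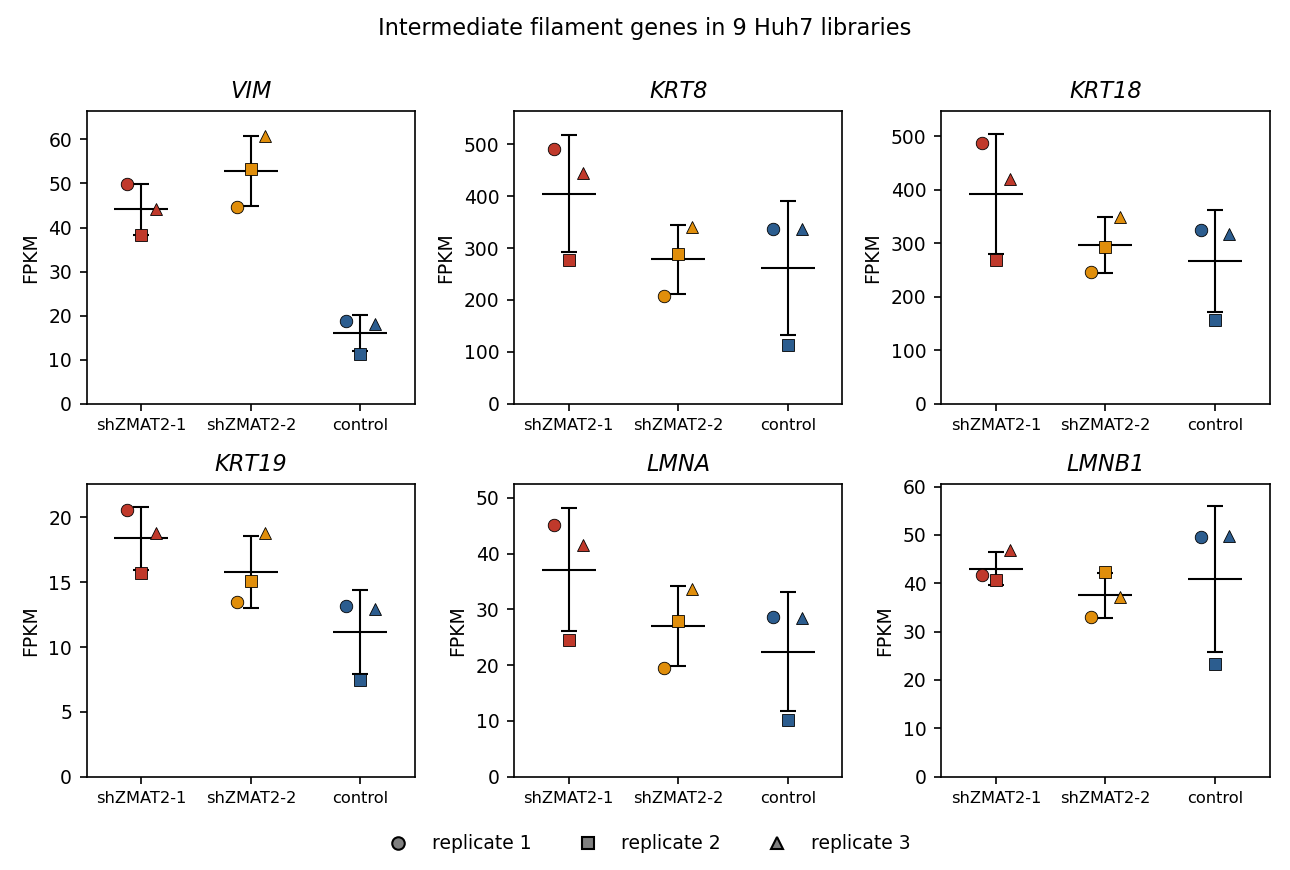
FPKM of 6 filament genes in each library of shZMAT2-1, shZMAT2-2 and control (points, shaped by replicate number), with the mean as a bar and the SD as whiskers (n = 3). VIM separates all 6 knockdown libraries from the controls, KRT19 does so by a narrow gap, and control replicate 2 is the lowest library for every gene shown.

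KRT8 and KRT18, the keratin pair of hepatocytes, were the most abundant of these genes, and their levels overlapped between the groups. KRT8 (ENSG00000170421, chromosome 12, 52897187 to 52949954, minus strand) stood at 492, 278 and 445 FPKM in shZMAT2-1, at 208, 288 and 340 FPKM in shZMAT2-2, and at 338, 113 and 336 FPKM in control libraries. The 3 groups overlapped, and control replicates 1 and 3 lay within the range of the knockdown libraries. KRT18 (ENSG00000111057, chromosome 12, 52948871 to 52952906, plus strand) followed the same order of libraries closely, with 487, 269 and 421 FPKM in shZMAT2-1, 247, 293 and 350 FPKM in shZMAT2-2, and 325, 156 and 318 FPKM in control libraries.

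Neither keratin was called by limma. KRT8 differed by 0.74 (95% interval -0.23 to 1.72) in shZMAT2-1 and 0.22 (-0.76 to 1.20) in shZMAT2-2 on the log2 scale, and KRT18 by 0.59 (-0.20 to 1.37) and 0.22 (-0.57 to 1.00). The exact permutation test of 6 knockdown against 3 control libraries gave p = 0.31 for KRT8 and p = 0.274 for KRT18, two-sided. Without control replicate 2 the shZMAT2-1 difference was 0.22 for KRT8 and 0.24 for KRT18, and the shZMAT2-2 difference was negative for both, -0.30 for KRT8 and -0.13 for KRT18.

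The genes KRT8 and KRT18 lie side by side on chromosome 12. Their deposited spans share 1084 bases on opposite strands, of which 525 are exonic in both genes in GENCODE release 29. The library kit marks strand, but the sources used here do not give the strand setting of the counting step. GENCODE names 50 pseudogenes of KRT8, 68 of KRT18 and 5 of KRT19. How reads that match several copies were counted is not given either, so the levels of these 3 keratins carry that uncertainty.

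In FPKM, which depends on the gene lengths used, KRT8 and KRT18 also stayed near 1 to 1 within libraries. The ratio of KRT8 to KRT18 in FPKM was 1.01, 1.03 and 1.06 in shZMAT2-1, 0.844, 0.982 and 0.972 in shZMAT2-2, and 1.04, 0.727 and 1.06 in control libraries. The lowest ratios were those of control replicate 2 and shZMAT2-2 replicate 1, which also had the highest mitochondrial shares, at 43.2% and 27.0%. Their part in the ratio was not tested.

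KRT19, a type I keratin of bile duct and progenitor cells that lacks the usual tail domain, was present at a much lower level than KRT18. It lies on chromosome 17 (ENSG00000171345, 41523617 to 41528308, minus strand). It stood at 20.6, 15.7 and 18.8 FPKM in shZMAT2-1, at 13.4, 15.1 and 18.8 FPKM in shZMAT2-2, and at 13.2, 7.43 and 12.9 FPKM in control libraries. All 6 knockdown libraries lay above the 3 controls, but shZMAT2-2 replicate 1 did so by a small margin over control replicate 1. Of all genes tested, 4.69% had 6 knockdown libraries above the 3 controls, and 2 of the 6 tested filament genes did, VIM and KRT19.

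The KRT19 difference did not pass the test over all genes. It was 0.70 in shZMAT2-1 and 0.49 in shZMAT2-2 (SE 0.243 each; limma adjusted p = 0.615 and 0.81). For the mean of both arms it was 0.60 (SE 0.211, limma adjusted p = 0.484). The exact permutation test gave p = 0.0119, two-sided, which is the smallest it allows, and p = 0.107 without control replicate 2, where the mean difference was 0.35. Of 10 markers of bile duct cells 5 averaged at least 1 FPKM, and the list summed to 54.7 to 89.2 FPKM in shZMAT2-1, 80.6 to 97.8 FPKM in shZMAT2-2 and 63.1 to 100.4 FPKM in control libraries, with the 3 ranges overlapping.

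KRT7 and KRT80 were at the limit of detection. KRT7, a type II keratin of ducts (ENSG00000135480, chromosome 12, 52232520 to 52252186, plus strand), had 1 fragment in shZMAT2-1 replicate 1 and was listed at 0 in the other 8 libraries. A count of 0 allows up to 3 fragments, or 0.0309 to 0.0381 FPKM of KRT7 in those libraries, for counting error only. KRT80 (ENSG00000167767, chromosome 12, 52168996 to 52192014, minus strand) was listed at 0 in all 3 control libraries. It had 12, 1 and 2 fragments in shZMAT2-1 and 2, 1 and 4 in shZMAT2-2, which is 0.149, 0.010 and 0.0224 FPKM in shZMAT2-1 and 0.0197, 0.0097 and 0.0417 FPKM in shZMAT2-2. Only shZMAT2-1 replicate 1 and shZMAT2-2 replicate 3 exceeded 3 fragments, the level that a count of 0 allows. Both genes fell below the filter and were not tested, so 6 of the 8 filament genes were tested.

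LMNA and LMNB1, the genes of the nuclear lamina, had different patterns over the libraries. LMNA (ENSG00000160789, chromosome 1, 156082573 to 156140081, plus strand) stood at 45.1, 24.6 and 41.6 FPKM in shZMAT2-1, at 19.5, 27.9 and 33.6 FPKM in shZMAT2-2, and at 28.7, 10.1 and 28.5 FPKM in control libraries. Its groups overlapped. LMNB1 (ENSG00000113368, chromosome 5, 126776623 to 126837020, plus strand) stood at 41.7, 40.6 and 46.9 FPKM in shZMAT2-1, at 33.0, 42.3 and 37.2 FPKM in shZMAT2-2, and at 49.6, 23.4 and 49.7 FPKM in control libraries. Control replicates 1 and 3 were the highest of all 9 libraries for LMNB1 and control replicate 2 the lowest.

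Neither lamin was called by limma. LMNA differed by 0.79 (95% interval -0.11 to 1.69) in shZMAT2-1 and 0.36 (-0.54 to 1.26) in shZMAT2-2, and the exact permutation test gave p = 0.202, two-sided. Without control replicate 2 the LMNA differences were 0.32 in shZMAT2-1 and -0.11 in shZMAT2-2. LMNB1 differed by 0.15 (-0.49 to 0.79) in shZMAT2-1 and -0.05 (-0.69 to 0.59) in shZMAT2-2, and the exact permutation test gave p = 0.881. The LMNB1 intervals do not reach the VIM difference in either arm. Its direction depended on the scaling and on 1 library: for the mean of both arms it was 0.0488 on the deposited values, -0.0831 after median-of-ratios scaling, and -0.30 without control replicate 2.

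The ratio of LMNA to LMNB1 within a library was 1.08, 0.605 and 0.888 in shZMAT2-1, 0.592, 0.660 and 0.903 in shZMAT2-2, and 0.579, 0.434 and 0.574 in control libraries. All 6 knockdown libraries lay above the 3 controls, the closest being shZMAT2-2 replicate 1 and control replicate 1. No test was run on this ratio.

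**Figure D2:**
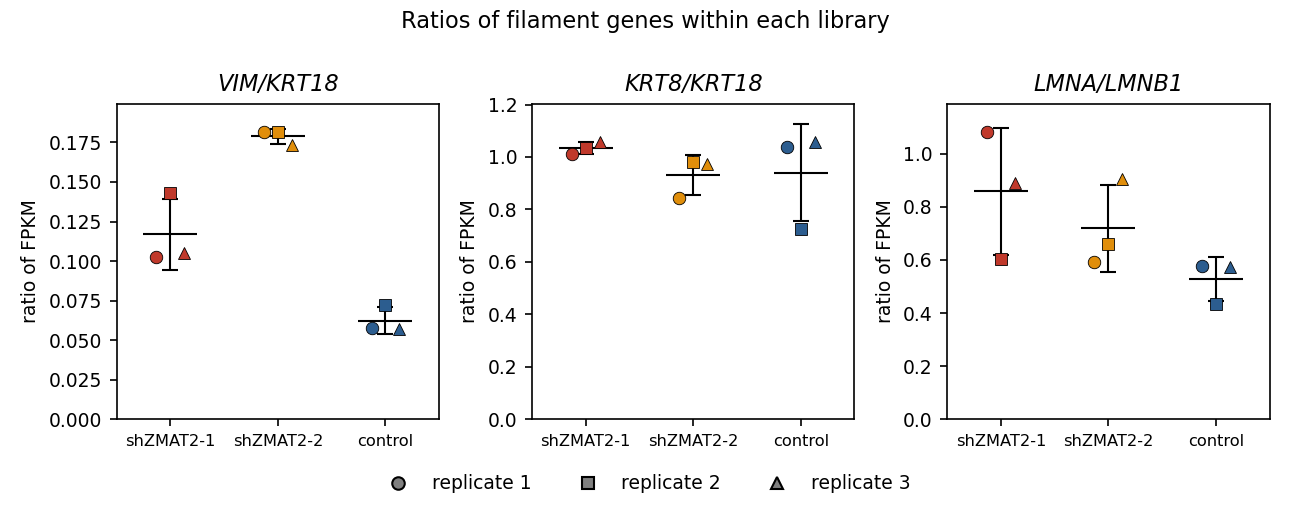
Ratios of FPKM within each library for VIM to KRT18, KRT8 to KRT18 and LMNA to LMNB1 in shZMAT2-1, shZMAT2-2 and control (points, shaped by replicate number; bar and whiskers, mean and SD, n = 3). The ratio of VIM to KRT18 separates the 3 groups, at 0.173 to 0.182 in shZMAT2-2, 0.103 to 0.143 in shZMAT2-1 and 0.0568 to 0.0724 in control libraries.

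Within a library the balance of vimentin to keratin can be read from a ratio, which does not depend on the scaling of the library and on which no test was run. VIM was 0.103, 0.143 and 0.105 of KRT18 in shZMAT2-1, 0.181, 0.182 and 0.173 of KRT18 in shZMAT2-2, and 0.0579, 0.0724 and 0.0568 of KRT18 in control libraries. The 3 groups did not overlap. Of the summed FPKM of the 8 genes, VIM made up 4.84% ± 0.80 in shZMAT2-1, 7.51% ± 0.36 in shZMAT2-2 and 2.77% ± 0.64 in control libraries (SD, n = 3 each). KRT8 and KRT18 together made up 84.4% ± 2.10, 81.1% ± 0.89 and 85.0% ± 1.14, so the sum over these 8 genes was mostly that keratin pair in every group. That sum leaves out other filament genes, among them NES and LMNB2, whose levels are given below. Against KRT8 the separation was not complete: VIM was 0.0995 to 0.138 of KRT8 in shZMAT2-1, 0.178 to 0.215 in shZMAT2-2 and 0.0538 to 0.0996 in control libraries.

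The order of FPKM levels, which also depends on the gene lengths used, differed by group. In shZMAT2-1 the means ran KRT8, KRT18, VIM, LMNB1, LMNA and KRT19, and in shZMAT2-2 they ran KRT18, KRT8, VIM, LMNB1, LMNA and KRT19. In control libraries VIM stood lower, after KRT18, KRT8, LMNB1 and LMNA and before KRT19. The ranges of KRT8 and KRT18 overlapped in all 3 groups, as did those of LMNB1 and LMNA. Within libraries LMNA lay below LMNB1 in 2 of 3 shZMAT2-1, 3 of 3 shZMAT2-2 and 3 of 3 control libraries, and KRT8 lay below KRT18 in 0, 3 and 1 of 3. VIM lay above LMNB1 without overlap in shZMAT2-2 only, and it overlapped LMNA and KRT19 in control libraries.

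**Figure D3:**
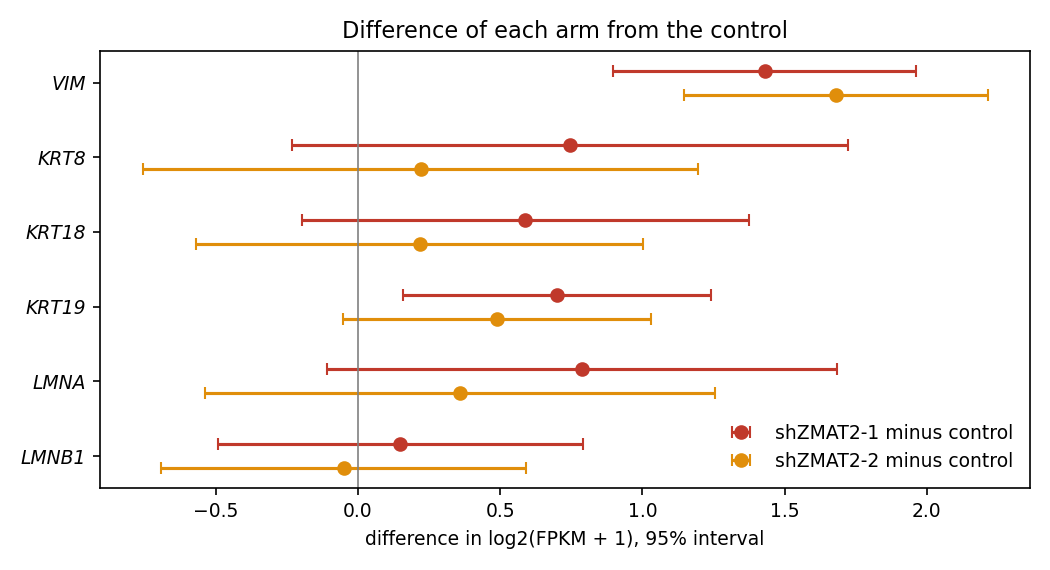
Difference in log2(FPKM + 1) of each arm minus control for 6 filament genes, with 95% intervals from limma. Both VIM intervals lie above 0 (1.43 and 1.68), as does that of KRT19 in shZMAT2-1 (0.70), which was not called over all genes; the other 9 intervals include 0.

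Over all genes tested the median difference was 0.16 on the log2 scale in shZMAT2-1, 0.05 in shZMAT2-2 and 0.10 for the mean of both arms, and it became 0.0041, -0.0053 and -0.0092 after median-of-ratios scaling. The 6 tested filament genes had medians of 0.72, 0.29 and 0.53 on the deposited scale, with estimates above 0 for 6, 5 and 6 of them. Of the 6, none was called in shZMAT2-1, and VIM was called in shZMAT2-2 and in the mean of both arms, against 0.08%, 0.587% and 0.542% of genes called in either direction. At an unadjusted p under 0.05 the counts were 2, 1 and 2 of 6, against 5.76%, 7% and 6.93% of all genes. With median-of-ratios scaling VIM was called in both arms, by 1.24 in shZMAT2-1 and 1.61 in shZMAT2-2 (limma adjusted p = 0.00495 and 0.00105), where 0.489% and 1.17% of genes were called higher. With TPM it was called in neither, at 1.68 and 1.71 (limma adjusted p = 0.88 and 1.0).

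The mitochondrial share varied within groups. VIM, both lamins and the keratins KRT8, KRT18 and KRT19 were lowest, within each group, in the library of its highest share, which is shZMAT2-1 replicate 2, shZMAT2-2 replicate 1 and control replicate 2. The order was not strict: KRT8 stood at 340 FPKM in shZMAT2-2 replicate 3, at a share of 16.6%, and at 288 FPKM in shZMAT2-2 replicate 2, at 14.5%. The 4 libraries with the lowest shares, from 7.70% to 8.28%, were replicates 1 and 3 of shZMAT2-1 and of the control. There VIM stood at 49.9 and 44.3 FPKM in shZMAT2-1, against 18.8 and 18.1 FPKM in control libraries. KRT8 stood at 492 and 445 FPKM in shZMAT2-1, against 338 and 336 FPKM in control libraries. LMNA stood at 45.1 and 41.6 FPKM in shZMAT2-1, against 28.7 and 28.5 FPKM in control libraries. LMNB1 was the exception, at 41.7 and 46.9 FPKM in shZMAT2-1, against 49.6 and 49.7 FPKM in control libraries.

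In those 4 libraries alone, a comparison chosen after the values were seen, 5 of the 6 filament genes were called by limma, all higher in shZMAT2-1, and LMNB1 was not (difference -0.16). The differences were 1.30 for VIM, 0.47 for KRT8, 0.49 for KRT18, 0.56 for KRT19 and 0.58 for LMNA. In that fit 37.5% of all genes tested were called in either direction and 19.3% were called higher, and it rests on 2 libraries a group. With the mitochondrial level as a covariate over all 9 libraries, 2 filament genes were called in shZMAT2-1 (VIM and KRT19), where 3.73% of genes were, and 4 in shZMAT2-2 (VIM, KRT8, KRT19 and LMNA), where 9.84% were. In the mean of both arms the same 4 were called, with 9.75% of all genes. The part of the mitochondrial share in the differences of the keratins and LMNA was not tested beyond these fits.

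**Figure D4:**
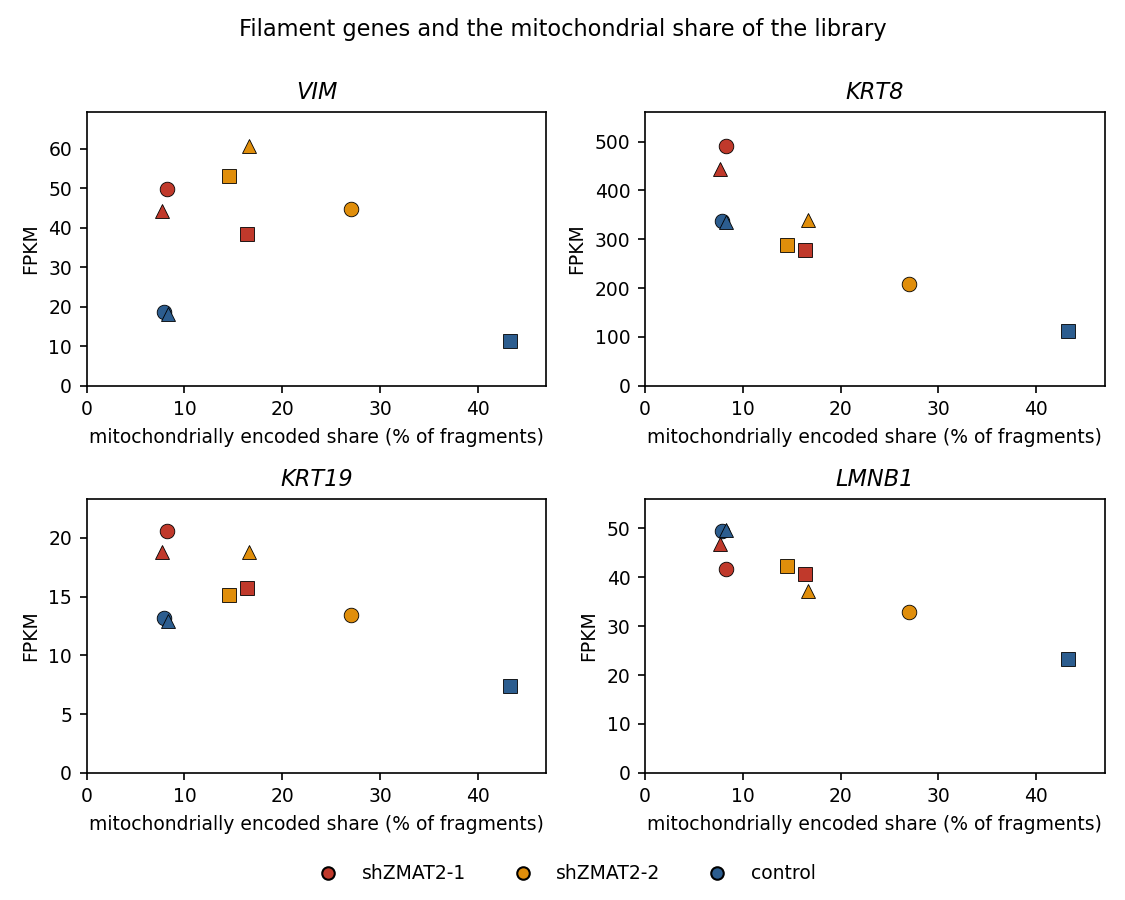
FPKM of VIM, KRT8, KRT19 and LMNB1 in each library (y axis) against the share of its fragments from mitochondrially encoded genes (x axis, %), coloured by group, with circles, squares and triangles for replicates 1, 2 and 3. Each gene shown is lowest in the control library at 43.2%, and the VIM values of the 6 knockdown libraries lie above the controls. Control libraries lie at 7.86%, 8.28% and 43.2%, so the knockdown libraries at 14.5% to 27.0% have no control of like share.

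Other members of the filament system were described from lists. Of 18 other keratins read, KRT23 and KRT10 passed the filter. Limma called 0 of them in any contrast, beside 0% to 0.587% of all genes. At an unadjusted p under 0.05 the count was also 0, beside 4.14% to 7% of all genes. With 2 genes tested these counts do not set the keratins apart. KRT23, a type I keratin, averaged 7.602 ± 1.02 FPKM in shZMAT2-1, 9.81 ± 1.20 FPKM in shZMAT2-2 and 6.98 ± 3.25 FPKM in control libraries, and KRT10, a keratin of differentiated epidermis, averaged 9.57 ± 4.13, 5.62 ± 0.91 and 7.54 ± 3.33 FPKM (SD, n = 3 each). The other 16 keratins stayed at or below 0.441 FPKM in all 9 libraries. Of 11 other cytoplasmic filament genes 3 were tested. Limma called 0 in shZMAT2-1 and in shZMAT2-2, beside 0.08% and 0.587% of all genes. At an unadjusted p under 0.05 there were 1 in shZMAT2-1 (NES) and 0 in shZMAT2-2, beside 5.76% and 7% of all genes. NES, which encodes nestin, a large filament protein that assembles with vimentin, averaged 133.6 ± 21.9 FPKM in shZMAT2-1, 115 ± 18.6 FPKM in shZMAT2-2 and 81.8 ± 28.9 FPKM in control libraries, with a mean difference of 0.65 on the log2 scale (limma adjusted p = 0.63). SYNM, which encodes synemin, averaged 7.32 ± 0.79, 7.06 ± 1.89 and 6.81 ± 2.93 FPKM in the same order.

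Among 17 plakins and desmosome proteins, which anchor filaments to junctions and to each other, 13 were tested. In shZMAT2-2 limma called 2 higher, EPPK1 and PPL, beside 0.507% of all genes. In shZMAT2-1 it called 0, with 2 at an unadjusted p under 0.05, beside 5.76% of all genes. EPPK1, which encodes epiplakin, a plakin that binds keratin and vimentin filaments, stood at 1.48, 1.82 and 1.90 FPKM in shZMAT2-1, at 1.61, 2.29 and 1.76 FPKM in shZMAT2-2, and at 0.655, 0.279 and 0.624 FPKM in control libraries. The knockdown libraries lay above all control libraries, and EPPK1 rose by 0.93 in shZMAT2-2 (limma adjusted p = 0.0296) and by 0.89 in the mean of both arms (limma adjusted p = 0.0183). All control libraries lay below 1 FPKM, so EPPK1 passed the filter only through the knockdown libraries where it is high. Without the filter it was called in neither contrast (limma adjusted p = 0.077 and 0.062). At such low levels the added 1 compresses the difference: with a pseudocount of 0.1 it was 1.73 in shZMAT2-2 and 1.68 in the mean. The call in the mean was lost in 5 of 9 fits that left out 1 library, without shZMAT2-1 replicate 3, shZMAT2-2 replicate 2 or 3, or control replicate 1 or 3 (limma adjusted p from 0.0575 to 0.0902). PPL, which encodes periplakin, stood at 3.59, 3.86 and 3.71 FPKM in shZMAT2-1, at 4.67, 6.45 and 5.66 FPKM in shZMAT2-2, and at 2.66, 1.66 and 2.42 FPKM in control libraries. It rose by 1.02 in shZMAT2-2 (limma adjusted p = 0.0357); its differences of 0.55 in shZMAT2-1 and 0.79 in the mean of both arms were not called (limma adjusted p = 0.537 and 0.065). Both calls in shZMAT2-2 were lost in 8 of 9 fits that each left out 1 library, all but that without control replicate 2, with limma adjusted p values up to 0.175 for EPPK1 and 0.235 for PPL. Over these 9 fits 0 to 270 of all genes were called in shZMAT2-2 and 6 to 150 in the mean, against 66 and 61 with all 9 libraries. The PPL call was also lost without the filter (limma adjusted p = 0.0625). The median over the 13 genes was 0.12 in shZMAT2-1 and 0.32 in shZMAT2-2, beside 0.16 and 0.05 over all genes.

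Of 17 genes of lamina and nuclear envelope partners 15 were tested, and of 5 lamin-processing enzymes 4. Limma called 0 of both lists in any contrast, beside 0% to 0.587% of all genes. At an unadjusted p under 0.05 the count was also 0, beside 4.14% to 7% of all genes. Counts of 0 among so few genes do not set these lists apart. BANF1, which encodes a small protein that links chromatin to the envelope, averaged 77.3 ± 13.6 FPKM in shZMAT2-1, 64.7 ± 6.01 FPKM in shZMAT2-2 and 63.9 ± 8.25 FPKM in control libraries. LMNB2, the gene of lamin B2, averaged 51.4 ± 8.97, 38.9 ± 7.34 and 45.4 ± 18.5 FPKM in the same order. The ratio of LMNB1 to LMNB2 was 0.852 ± 0.134 in shZMAT2-1, 0.974 ± 0.107 in shZMAT2-2 and 0.914 ± 0.054 in control libraries (SD, n = 3 each), and the groups overlapped. ICMT and RCE1, which methylate and trim farnesylated proteins such as prelamin A, averaged 44.6 ± 4.32 and 40.7 ± 12.3 FPKM in shZMAT2-1, 35.0 ± 6.83 and 24.4 ± 7.88 FPKM in shZMAT2-2, and 34.3 ± 16.6 and 31.2 ± 18.1 FPKM in control libraries.

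Genes tied to epithelial-mesenchymal transition were also read. Of 13 transcription factors, cadherins and related genes 6 were tested. Limma called 0 in shZMAT2-1 and in shZMAT2-2, beside 0.08% and 0.587% of all genes, so 0 of 6 does not set them apart. At an unadjusted p under 0.05 there were 0 and 2 (CDH1 and CDH2, both higher in shZMAT2-2), beside 5.76% and 7% of all genes. Their median differences were 0.11 and 0.32 on the log2 scale, with 5 and 6 of 6 estimates above 0. Over all genes the medians were 0.16 and 0.05. CDH1, the gene of the epithelial E-cadherin, averaged 7.19 ± 0.84 FPKM in shZMAT2-1, 9.21 ± 0.75 FPKM in shZMAT2-2 and 5.43 ± 1.37 FPKM in control libraries (SD, n = 3 each), with a difference of 0.69 in shZMAT2-2 (limma adjusted p = 0.26). FN1, which encodes fibronectin, averaged 264.8 ± 63.0 FPKM in shZMAT2-1, 323.9 ± 41.1 FPKM in shZMAT2-2 and 255.2 ± 26.9 FPKM in control libraries. CDH2, the gene of N-cadherin, averaged 9.97 ± 2.68, 14.5 ± 2.00 and 8.97 ± 1.53 FPKM in the same order, with a difference of 0.64 in shZMAT2-2 (limma adjusted p = 0.461). The other 7 stayed at or below 0.575 FPKM in all 9 libraries. Of 9 fibroblast markers read, only COL1A2 averaged at least 1 FPKM, and the list summed to 3.99 to 5.18 FPKM in shZMAT2-1, 2.38 to 3.69 FPKM in shZMAT2-2 and 2.09 to 4.43 FPKM in control libraries. Its range lay within that of the controls in shZMAT2-2 and reached above it in shZMAT2-1. COL1A2 averaged 1.94 ± 0.51 FPKM in shZMAT2-1, 0.826 ± 0.134 FPKM in shZMAT2-2 and 1.14 ± 0.50 FPKM in control libraries (SD, n = 3 each), with a difference of 0.48 in shZMAT2-1 (limma adjusted p = 0.805). Its part in the VIM difference was not tested.

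The genes whose profile lay nearest to each filament gene were found over the 9 libraries, as the smallest root mean square difference between centred log2(FPKM + 1) values among 5957 protein-coding genes of at least 5 FPKM on average. For VIM, whose own profile varied by 0.77 on that scale, they were CXCL1 (0.16), a chemokine that attracts neutrophils, ANXA3 (0.16), an annexin, LOXL4 (0.18), a lysyl oxidase family member, IL18 (0.19), a cytokine, and IGFBP3 (0.20), a carrier of insulin-like growth factors. CXCL1 stood at 35.8, 37.4 and 32.5 FPKM in shZMAT2-1, at 36.6, 41.4 and 42.3 FPKM in shZMAT2-2, and at 11.8, 7.74 and 13.4 FPKM in control libraries. Like VIM, each of these 5 genes was lowest in control replicate 2. They were picked for likeness to VIM over the same libraries, so this is not a separate result.

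The nearest genes of the keratins and lamins lay closer. They were MRTO4, a ribosome assembly factor, and MYL12B, a myosin light chain, for KRT8 (0.059 each), and DAPK3, a kinase, and PDCL3 for KRT18 (0.058 and 0.061). For KRT19 they were TAGLN2 and EPHX1, a microsomal epoxide hydrolase (0.065 and 0.069), for LMNA ATG4D, an autophagy protease, and SYNGR2 (0.056 and 0.064), and for LMNB1 RAD21, a cohesin subunit, and C1GALT1C1 (0.029 and 0.033). Likeness here is over libraries that share the control group and the mitochondrial share, and carries no test.

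**Figure D5:**
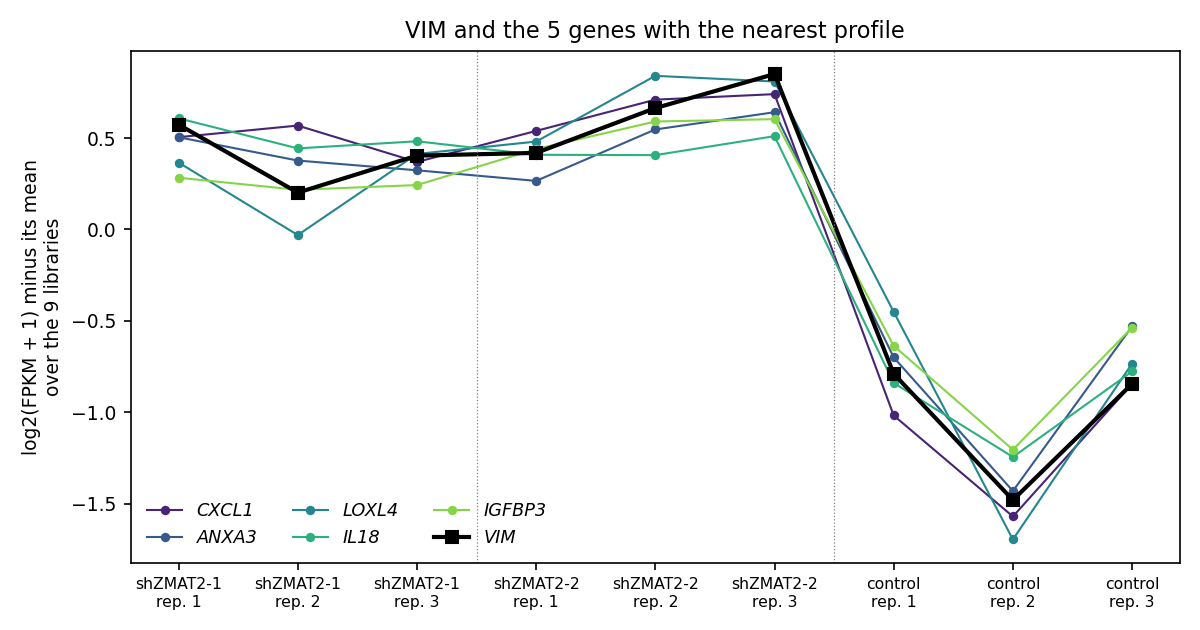
Log2(FPKM + 1) minus its mean over the 9 libraries (y axis) for VIM (black squares) and the 5 genes of nearest profile, by library of shZMAT2-1, shZMAT2-2 and control. All 6 genes stand higher in the 6 knockdown libraries than in the 3 controls and are lowest in control replicate 2. The 5 genes were chosen for likeness to VIM over these same libraries, so the shared pattern follows from that choice.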

How the data were processed

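Poly(A) RNA of 9 Huh7 libraries was sequenced, per the labels' protocols. The authors deposited FPKM per gene. The submitters' processing notes list the tools HISAT, featureCounts and DESeq2 with no version, and the sources used here do not give a genome build. Groups came from the sample titles. Of the 9 sample columns all were used. Depth was recovered from 1542 single-exon genes of GENCODE release 29, whose values were whole fragments within 0.1.

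The 11245 genes that reached 1 FPKM in 3 or more libraries were fitted with limma 3.58.1 in R 4.3.3, with a trend, on log2(FPKM + 1) over all 9 libraries with the group as the only term. That scale understates changes of low genes. P-values are two-sided and Benjamini-Hochberg adjusted over all 11245, and exact permutation tests were run for single genes. The fit was tested on simulated data. Python 3.11.15, pandas 2.3.3, scipy 1.17.1 and matplotlib 3.10.9 did the rest. Alternatives were other scalings, pseudocounts, filters, covariates, gene sets, and leaving out libraries.

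The filament genes and the lists were chosen with earlier results of these data known. Named besides them are ZMAT2; per list the called genes or, with none, the 2 of highest mean; and for VIM the 5 and for the others the 2 nearest profiles. COL1A2 and CDH1 were named after their values were seen. Endothelial and leukocyte marker lists had 1 of 6 and 2 of 8 genes of at least 1 FPKM.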

Additional observations from a re-analysis of the deposited data

How the results depend on the processing

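The number of filament genes called was recomputed under 23 alternatives. In shZMAT2-1 it was 0 on the deposited values and 1 with median-of-ratios scaling, quantile normalization, scaling on nuclear genes, and without the second replicates of control and shZMAT2-1 together; it was 2 with the mitochondrial covariate and 5 in the 4 low-share libraries, a comparison added after seeing the data. In shZMAT2-2 it was 1, against 0 with TPM and in a fit of the compared groups alone, and 4 with the covariate. In the mean of both arms it was 1, against 0 with TPM, 2 with scaling on nuclear genes and 4 with the covariate; that contrast needs all groups and was not run on fewer. Between the arms it was 0, and 3 of 6 without both second replicates, where 42.3% of all genes were called. Leaving out 1 library at a time gave 0 to 1 in shZMAT2-1, in shZMAT2-2 and in the mean. Over all 11245 genes the calls in shZMAT2-1 numbered 9 on the deposited values. They were 77, 79, 55 and 140 under the settings listed above at 1, in that order. The covariate gave 419 and the low-share libraries 4215. In shZMAT2-2 they were 66, against 0 with TPM and 1107 with the covariate. In the mean they were 61, against 1 with TPM, 180 with scaling on nuclear genes and 1096 with the covariate. Single exclusions gave 0 to 33, 0 to 270 and 6 to 150. With TPM the targeted gene ZMAT2 differed by -0.98 (limma adjusted p = 1.0), and over single-library exclusions it ranged from -1.13 to -1.004.

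LMNB1 changed sign most often. In shZMAT2-1 it was -0.0441 with median-of-ratios scaling, -0.0955 with quantile normalization, -0.0900 with scaling on nuclear genes, -0.16 without both second replicates and in the 4 low-share libraries, and -0.0354 with the covariate; leaving out 1 library gave -0.20 to 0.32. In shZMAT2-2 it was 0.0883 with the covariate, and -0.40 to 0.13 over single exclusions. In the mean it was -0.0831, -0.0810, -0.0652 and -0.28 under those 3 scalings and without both second replicates, and -0.30 to 0.23 over single exclusions. Between the arms it was 0.0290 with quantile normalization, 0.0496 with scaling on nuclear genes and 0.12 with the covariate. Over single exclusions KRT8 ranged from -0.30 to 0.48, KRT18 from -0.13 to 0.40 and LMNA from -0.11 to 0.60 in shZMAT2-2, and KRT8 from -0.0391 to 0.74 in the mean. Without both second replicates they were -0.30, -0.13 and -0.11 in shZMAT2-2. Between the arms the covariate gave 0.0225 for KRT8, 0.0162 for KRT18, 0.0407 for KRT19 and 0.0846 for LMNA, and scaling on nuclear genes gave 0.0295 for KRT19. The cause of these shifts was not tested.

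Under quantile normalization the log2 differences were 0.45 for KRT8 and 0.33 for KRT18, each with an exact permutation p of 0.0119, and with scaling on nuclear genes KRT18 differed by 0.28 (exact permutation p = 0.0357). KRT19 differed by 0.72 on the log2 scale with TPM (exact permutation p = 0.107) and by 0.37 without both second replicates (exact permutation p = 0.143). Its log2 difference over single exclusions was 0.35 to 0.72. For LMNB1 the mean difference was -0.0831, -0.0810, -0.0652 and -0.31 under the same 4 settings. VIM kept its direction in every fit run.

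The labels state no pairing by replicate number. Same-numbered libraries correlated from -0.763 to 0.777 in their deviations from group means, with 6 of 9 pairs over 0.1. For control with shZMAT2-1 they were 0.61, 0.777 and 0.693. With 3 libraries a group and a mitochondrial share that varied within groups, these values cannot settle whether the numbers pair the samples. With a replicate block the number of filament genes called was 0, 1 and 1 in shZMAT2-1, shZMAT2-2 and the mean, as without it, while the calls of EPPK1 and PPL in shZMAT2-2 were lost (limma adjusted p = 0.0516 and 0.0732). KRT7 and KRT80 lie at the depth limit, and 3 libraries a group leave intervals of the keratins wide.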
